A study of Arabidopsis thaliana with 6 samples.

Results

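In shoots of Arabidopsis thaliana seedlings, 50 genes were well expressed in the wild type Col-0 and clearly lower in the pvip1 pvip2 double mutant. They were chosen by their measured signals, as probe sets named with 1 gene whose log2 signal was at least 6 on all 3 Col-0 arrays and whose highest pvip1 pvip2 value lay at least 1 below the lowest Col-0 value, which is a gap of a factor of at least 2 on the linear scale. The series holds 22746 probe sets other than controls. Of these, 13513 carry the name of 1 gene, 3263 of the 13513 reached the level in Col-0, and 56 of the 3263 (1.72%) also had the gap. From the 56, 6 were set aside by name: AT1G67860, AT1G67865, AT1G67870, the glutaredoxin gene AT5G18600, BCAT4 and the IQ-domain gene iqd21. Among the same 3263, 50 (1.53%) had an equal gap in the opposite direction, and 26.7% lay lower in the mutant with no overlap of the genotypes, whatever the gap. A further 55 probe sets with no gene name here and 2 that name several genes met the same level and gap and are not described. Because the signals of all 6 arrays chose the 50 genes, their differences between the genotypes are given as a description with no test.

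The RNA came from the double mutant pvip1 pvip2, on 3 arrays, and from the corresponding wild type Col-0, on 3 arrays. Both were germinated on MS agar at 21 °C with 16 h of light and harvested at 10 days after germination. Wild-type roots were taken off and the mutants were cut at the vestigial hypocotyl, so that material of both genotypes had been wounded. The labels give neither the alleles nor the number of seedlings in a sample. In RNA of whole shoots, fewer cells of a type and less RNA per cell cannot be told apart.

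PVIP proteins, also called OBERON proteins, carry a PHD finger, a domain that binds histone tails, and plants need them to set up and keep their meristems. A young leaf grows by division and then by expansion of its cells, during which walls are loosened and rebuilt by secreted enzymes, the epidermis gains stomata, and the mesophyll takes up photosynthesis and exports sugar. Some of the genes described here belong to these activities and others do not, and for 13 of the 50 no role is given. Whether they share a pathway was not tested.

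Several arrays stood apart. The OBERON gene OBE1 (AT3G07780) had log2 signals of 2.54, 2.61 and 2.53 in pvip1 pvip2, and of 2.42, 5.08 and 5.17 in Col-0 replicates 1, 2 and 3, so the array labelled Col-0 replicate 1 goes against its label at this gene. Col-0 replicate 3 had the largest excess of 3′ over 5′ signal in the actin, GAPDH and ubiquitin controls, at 3.78, 1.48 and 1.18 on the log2 scale. The other 5 arrays had 2.49 to 2.82, 0.325 to 0.62 and 0.878 to 0.975. RCA, the activase of Rubisco and the only mesophyll marker with a named probe set above the level filter, had 12.1 to 12.6 in pvip1 pvip2 and 12.4 to 12.8 in Col-0. Of 3 root markers tested, PYK10 and AT2G37130 rose in the mutant, by 1.76 and 2.69, and AT5G17820 stood at 0.83 (limma adjusted p = 0.222). EXPA7 and EXPA18, expansins of root hairs, had values of 3.10 to 4.29 on all arrays. At AT5G17820, EXPA7 and EXPA18 the highest array was pvip1 pvip2 replicate 2, with 6.54, 4.29 and 4.23. The other 5 arrays had 4.5 to 5.1, 3.2 to 3.4 and 3.1 to 3.6. That array was not the highest at PYK10 or AT2G37130. The part of tissue make-up in the differences below was not tested. Replicates 1 and 2 of both genotypes were run on the first fluidics station and replicate 3 of both on the second, with pvip1 pvip2 on even-numbered and Col-0 on odd-numbered modules, so module and genotype cannot be told apart.

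The 50 genes averaged between 6.38 and 10.98 in Col-0, and 32 of them lay above 7.39, the median of the 3263 well-expressed genes. In the mutant they retained between 5.28% and 43.3% of the Col-0 signal, with a median of 27.4%. The difference of genotype means, pvip1 pvip2 minus Col-0, ran from -4.24 to -1.21 on the log2 scale, with a median of -1.87, against a median of -0.10 over the 3263. In 20 of the 50 the difference was -2 or beyond, in 6 it was -3 or beyond and in 2 it was -4 or beyond. On all 3 mutant arrays 25 of the 50 stayed below the level of 6. AT3G53250 alone had a mutant mean under 3.81, the level below which probe sets were left out of tests, so in most of the others the lower signal was still above the dense group of values at the bottom of the scale. The median difference was -1.89 if the array labelled Col-0 replicate 1 was left out, and -1.84 if Col-0 replicate 3 was.

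**Figure D1:**
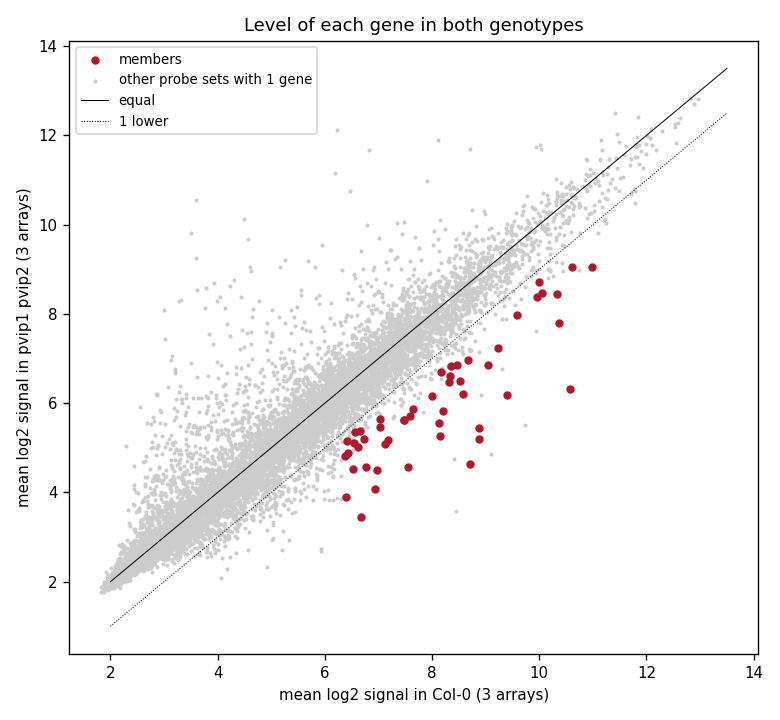
Mean log2 signal in pvip1 pvip2 (vertical axis) against mean log2 signal in Col-0 (horizontal axis), 3 arrays each, for every probe set named with 1 gene. The 50 members, in red, lie below the dotted line that marks a difference of 1 and spread from about the middle to the upper end of the Col-0 scale; grey points that are as low failed the gap or the level, or were set aside by name.

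Proteins linked to defence or to lipids held the largest difference of all. AT1G23130 encodes a protein of the Bet v 1 family, whose members bind hydrophobic molecules in a large cavity. It had log2 signals of 7.09, 7.21 and 4.69 in pvip1 pvip2 replicates 1, 2 and 3, against 10.32, 10.85 and 10.54 in Col-0. All 3 mutant arrays were far below Col-0, and replicate 3 was lower again by more than 2 units. The difference was -4.24 (SE 0.84), or 18.9-fold, and it was -3.42 without pvip1 pvip2 replicate 3. AT1G66100, a thionin gene, codes for a small cysteine-rich toxin of the kind that permeabilises microbial membranes. It had 7.09, 3.70 and 5.58 in pvip1 pvip2, against 9.57, 8.58 and 8.47 in Col-0. Its mutant values covered the widest range among the 50, and the difference of -3.42 (SE 1.04) became -2.54 without pvip1 pvip2 replicate 2 and -4.24 without pvip1 pvip2 replicate 1.

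A pair of thaumatin-like genes, ATLP-1 and AT4G38660, stood together among the lowered genes. Thaumatin-like proteins are secreted and belong to pathogenesis-related family PR-5. ATLP-1 had 5.51, 5.67 and 4.09 in pvip1 pvip2, against 7.16, 6.98 and 7.23 in Col-0, a difference of -2.03 (SE 0.51). On the second station alone, where replicate 3 of each genotype was run, it was -3.13. AT4G38660 had 5.04, 4.55 and 4.09 in pvip1 pvip2, against 7.32, 6.48 and 6.49 in Col-0, a difference of -2.21 (SE 0.39). In both genes replicate 3 was the lowest mutant array. AT4G22490, of the lipid transfer protein superfamily, was among the more strongly expressed members, with 8.92, 8.49 and 7.95 in pvip1 pvip2 against 10.69, 10.28 and 10.00 in Col-0. The GDSL lipase genes AT5G45670 and AT4G01130 differed by -1.74 (SE 0.26) and -1.60 (SE 0.33). GDSL enzymes cleave ester bonds of lipids and wall polymers. AT4G01130 had 5.10, 4.57 and 5.39 in pvip1 pvip2, against 6.40, 6.41 and 7.06 in Col-0, and its gap of 1.01 was the smallest of all members.

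Genes of the cell wall and of secretion numbered 7, with differences from -3.20 to -1.21. AT3G16670 encodes a secreted protein of the Ole e 1 family, named after an olive pollen allergen. It had 6.45, 7.30 and 4.83 in pvip1 pvip2, against 9.36, 9.57 and 9.26 in Col-0. The Col-0 arrays agreed within 0.31, while the mutant arrays spread over more than 2 units, and the difference of -3.20 (SE 0.73) was -2.52 without pvip1 pvip2 replicate 3. AT2G33850, which resembles the E6 protein of cotton fibres, had 4.92, 5.02 and 3.77 in pvip1 pvip2, against 7.51, 7.72 and 7.44 in Col-0, a difference of -2.99 (SE 0.41). AT5G07030, an aspartyl protease gene, had 5.85, 5.79 and 5.06 in pvip1 pvip2, against 8.20, 8.15 and 8.06 in Col-0.

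XTH16 encodes a xyloglucan endotransglucosylase/hydrolase, an enzyme that cuts and rejoins the xyloglucan chains between cellulose microfibrils. Its signals were 5.40, 5.24 and 4.93 in pvip1 pvip2, against 6.51, 6.98 and 6.73 in Col-0, a difference of -1.55 (SE 0.20). AT3G62820, of the invertase and pectin methylesterase inhibitor family, had 6.03, 5.95 and 6.54 in pvip1 pvip2, against 7.95, 8.09 and 7.93 in Col-0. In this gene replicate 3 was the highest mutant array, unlike in most of the wall genes. SBT1.3, a subtilisin-like protease gene, had 7.36, 7.26 and 6.30 in pvip1 pvip2, against 8.74, 8.52 and 8.77 in Col-0. AT3G30300, of the O-fucosyltransferase family, which acts on glycans and proteins in the secretory pathway, had the smallest difference of the 50, -1.21 (SE 0.08), with 5.39, 5.34 and 5.32 in pvip1 pvip2 against 6.43, 6.55 and 6.69 in Col-0.

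**Figure D2:**
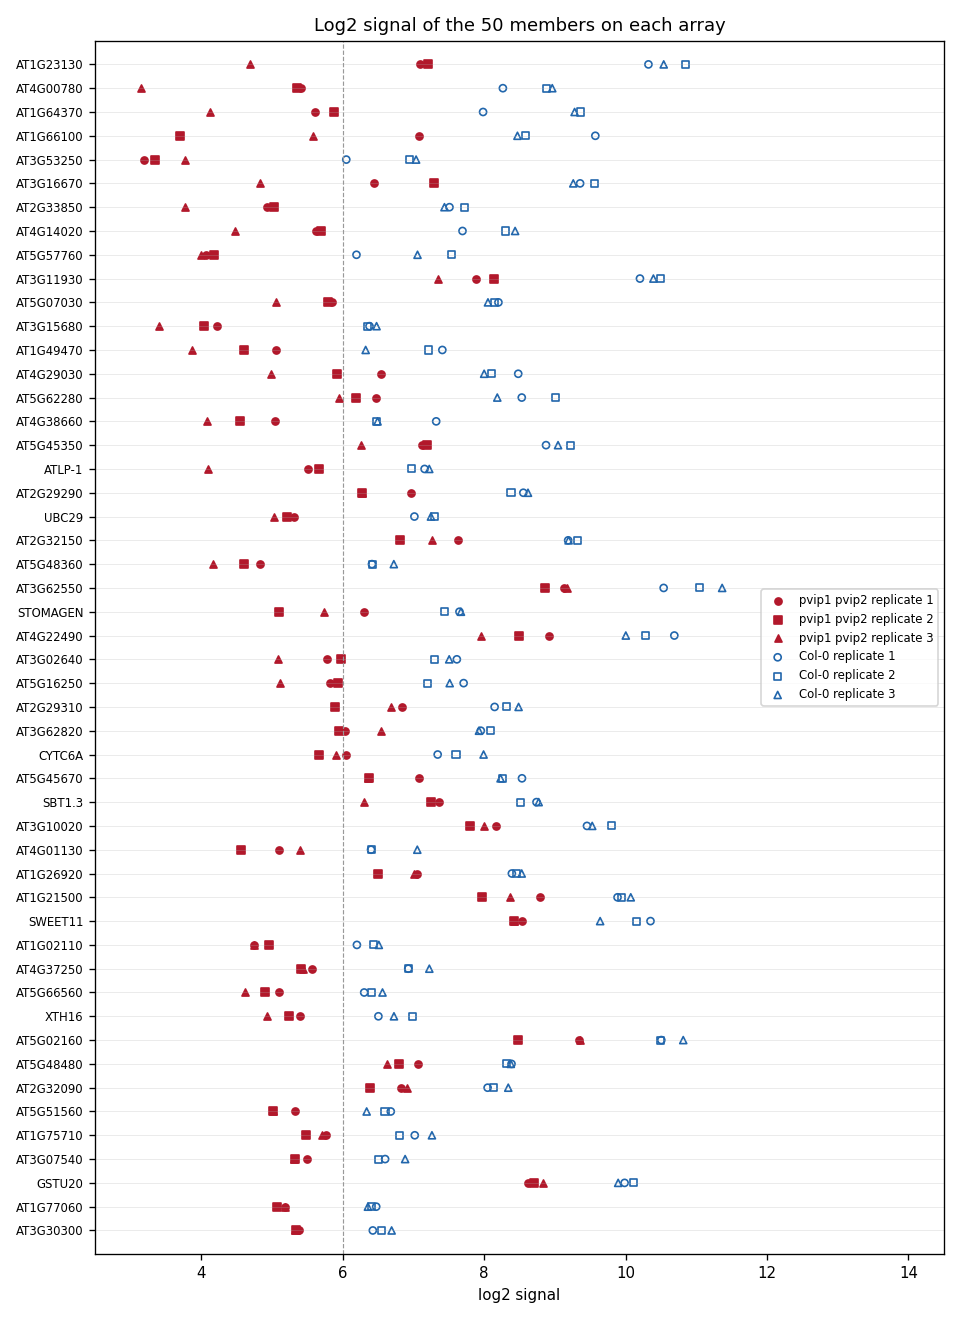
Log2 signal of each of the 50 members on every array (horizontal axis), with genes ordered by their difference from the largest at the top; red filled symbols are pvip1 pvip2, blue open symbols Col-0, the shape gives the replicate number and the dashed line the level of 6. Red triangles, pvip1 pvip2 replicate 3, stand apart to the left in several upper rows, such as AT1G23130 at 4.69 and AT4G00780 at 3.15. They do not at AT1G66100, AT3G53250 or AT5G57760. Col-0 symbols of 1 gene mostly lie close together.

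Signalling and cytoskeletal genes numbered 7, and their differences had a median of -1.56. STOMAGEN, also named EPFL9, encodes a secreted peptide made in the mesophyll that promotes stomata in the overlying epidermis. It had 6.31, 5.10 and 5.74 in pvip1 pvip2, against 7.65, 7.44 and 7.67 in Col-0. The Col-0 arrays agreed within 0.23, and the difference was -1.87 (SE 0.36). The guard cell lineage genes FMA and SPCH, the tested markers of that list, stood at -0.60 and -0.59 (limma adjusted p = 0.0576 and 0.0513, or 0.0369 and 0.042 with the replicate number as a block), and the part of the number of stomatal cells was not tested. AT3G53250 belongs to the SAUR family of small genes that auxin induces, many of which promote cell expansion. It had 3.20, 3.35 and 3.78 in pvip1 pvip2, against 6.05, 6.94 and 7.04 in Col-0, and it reached the level of 6 on the array labelled Col-0 replicate 1 by the smallest margin of all members. Its mutant values lay at the bottom of the scale, where the difference of -3.24 (SE 0.36) is least certain, because the authors' background correction is not given.

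The leucine-rich repeat receptor kinase genes AT4G37250 and AT5G51560 differed by -1.56 (SE 0.11) and -1.43 (SE 0.15), and AT5G66560, of the NPH3 family whose founding member acts in phototropism, by -1.55 (SE 0.16). AT4G37250 had 5.57, 5.41 and 5.44 in pvip1 pvip2, against 6.93, 6.93 and 7.23 in Col-0. These receptor genes showed little spread between replicates in either genotype. The members included 2 formin genes, AT5G48360 and AT3G07540. Formins nucleate and elongate actin filaments. AT5G48360 had 4.83, 4.60 and 4.16 in pvip1 pvip2, against 6.42, 6.43 and 6.72 in Col-0, a difference of -1.99 (SE 0.22). AT3G07540 had 5.49, 5.32 and 5.31 in pvip1 pvip2, against 6.60, 6.51 and 6.88 in Col-0, a difference of -1.29 (SE 0.13).

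Metabolic, transport and plastid genes were the largest group with a role, 12 genes, and had the highest levels, with a median Col-0 mean of 8.88. Their differences ran from -2.58 to -1.27. They include the universal stress protein genes AT3G11930, with the largest difference of the group, and AT3G62550, with its highest Col-0 mean. Their family binds adenine nucleotides. AT3G11930 had 7.88, 8.14 and 7.34 in pvip1 pvip2, against 10.20, 10.50 and 10.39 in Col-0, a difference of -2.58 (SE 0.25). AT3G62550, which had the highest Col-0 mean of all members, stood at 9.13, 8.86 and 9.18 in pvip1 pvip2, against 10.54, 11.04 and 11.37 in Col-0, a difference of -1.93 (SE 0.26).

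SWEET11 encodes a sucrose exporter that, with its relative SWEET12, feeds sucrose from leaf phloem parenchyma into the path of phloem loading. It had 8.54, 8.42 and 8.43 in pvip1 pvip2, against 10.35, 10.16 and 9.64 in Col-0. The mutant arrays agreed within 0.12, and the mutant retained 33.3% of the Col-0 signal, a difference of -1.59 (SE 0.22). CYTC6A, a cytochrome of the thylakoid lumen, had 6.05, 5.66 and 5.90 in pvip1 pvip2, against 7.34, 7.60 and 7.99 in Col-0. AT5G02160, which encodes a thylakoid protein that binds the FtsH5 protease subunit, had 9.34, 8.49 and 9.36 in pvip1 pvip2, against 10.51, 10.49 and 10.82 in Col-0. In both plastid genes replicate 2, not replicate 3, was the lowest mutant array.

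Enzymes of small molecules made up the rest of the group. AT2G29290 and AT2G29310 encode short-chain dehydrogenases that resemble tropinone reductase, and a single gene lies between them on chromosome 2. AT2G29290 had 6.97, 6.27 and 6.27 in pvip1 pvip2, against 8.56, 8.38 and 8.62 in Col-0, a difference of -2.02 (SE 0.24). AT2G29310 had 6.83, 5.89 and 6.68 in pvip1 pvip2, against 8.15, 8.31 and 8.49 in Col-0, a difference of -1.85 (SE 0.31). The glyoxalase I family genes AT5G48480 and AT2G32090 differed by -1.53 (SE 0.13) and -1.47 (SE 0.19). AT2G32150, a haloacid dehalogenase-like hydrolase gene, differed by -2.0 (SE 0.24), and it lies close to AT2G32090, with 4 genes between. GSTU20, a tau-class glutathione transferase gene, had 8.62, 8.70 and 8.84 in pvip1 pvip2, against 9.99, 10.11 and 9.90 in Col-0. Its values were tight in both genotypes (SD 0.11 and 0.11, n = 3 each). The same held for AT1G77060, of the isocitrate lyase and phosphoenolpyruvate mutase family, at -1.27 (SE 0.05).

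Genes of protein and gene regulation numbered 4. AT4G00780 encodes a protein with a MATH domain, the fold of animal TRAF adaptors, and had the next largest difference after AT1G23130. It had 5.42, 5.36 and 3.15 in pvip1 pvip2, against 8.27, 8.88 and 8.96 in Col-0. Replicate 3 was again far below the other mutant arrays, and the difference of -4.06 (SE 0.78) was -3.32 without it. UBC29, a ubiquitin-conjugating enzyme gene, had 5.31, 5.22 and 5.03 in pvip1 pvip2, against 7.02, 7.30 and 7.25 in Col-0, a difference of -2.0 (SE 0.12). AT3G15680, of the RanBP2-type zinc finger family, had 4.22, 4.04 and 3.40 in pvip1 pvip2, against 6.38, 6.35 and 6.48 in Col-0. AT1G75710, a C2H2 zinc finger gene, differed by -1.38 (SE 0.16).

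For 13 of the 50 no role is given here, and these spanned differences from -3.68 to -1.56. AT1G64370 had 5.61, 5.87 and 4.12 in pvip1 pvip2, against 7.99, 9.37 and 9.28 in Col-0. The array labelled Col-0 replicate 1 was the lowest of its Col-0 arrays by more than 1 unit, and without it the difference of -3.68 (SE 0.70) was -4.12. AT5G57760 had 4.06, 4.18 and 4.0 in pvip1 pvip2, against 6.20, 7.54 and 7.06 in Col-0, with a difference of -2.85 (SE 0.40), or -3.22 when the array labelled Col-0 replicate 1 was omitted. AT4G14020 differed by -2.88 (SE 0.46). The other 10 were AT1G49470, AT4G29030, AT5G62280, AT5G45350, AT3G02640, AT5G16250, AT3G10020, AT1G26920, AT1G21500 and AT1G02110, with differences between -2.47 and -1.56.

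The mutant arrays differed among themselves more than the Col-0 arrays did at these genes. The median SD between replicates was 0.41 in pvip1 pvip2 and 0.17 in Col-0 over the 50 genes, and 0.20 in pvip1 pvip2 and 0.20 in Col-0 over the 3263 well-expressed genes. The SD was larger in the mutant for 37 of the 50 (74.0%), against 52.9% of the 3263. Replicate 3 was the lowest mutant array for 30 of the 50 (60%), against 21.7% of the 3263, and replicate 1 for only 2 (4.0%), against 45.4%. In 9 of the 50 (18%) replicate 3 lay at least 1 unit below the mean of replicates 1 and 2, against 1.44% of the 3263. These 9 were AT1G23130, AT4G00780, AT3G16670, AT1G64370, ATLP-1, AT4G29030, AT2G33850, AT4G14020 and SBT1.3. Each share is a description, since the same arrays chose the genes. The sets also differed in level, with a median mutant mean of 5.64 over the 50 and 7.32 over the 3263. The part of signal level in the spread was not tested.

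The order of the mutant arrays differed between roles, which were assigned after the values were known. Among the metabolic, transport and plastid genes replicate 2 was the lowest array in 9 of 12 and replicate 3 in 2. Replicate 3 was the lowest in 4 of 7 signalling and cytoskeletal genes and in 3 of 4 genes of protein and gene regulation. It was also the lowest in 6 of 7 wall and secretion genes. Among the defence and lipid genes, GDSL lipases included, it was the lowest in 5 of 7. Among the genes with no role given it was the lowest in 10 of 13. The median of replicate 3 minus the mean of replicates 1 and 2 was 0.05 in the metabolic group, -0.10 in the signalling group, -0.49 in the regulation group, -0.76 in the wall group and -0.71 in the defence group. It was -0.76 among the genes with no role given. In Col-0 no array stood out so far: the lowest was the array labelled replicate 1 in 24 of the 50, replicate 2 in 12 and replicate 3 in 14, close to the shares over the 3263 (45.3%, 23.0% and 31.8%). Replicate 3 of both genotypes ran on the other fluidics station, and the part of the station in the low replicate 3 values was not tested. With replicates 1 and 2 alone, on the first station, the differences ran from -3.69 to -1.13 with a median of -1.78. With replicate 3 alone, on the second station, they ran from -5.85 to -1.06 with a median of -2.14. Their sign is fixed by the rule that chose the genes.

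**Figure D3:**
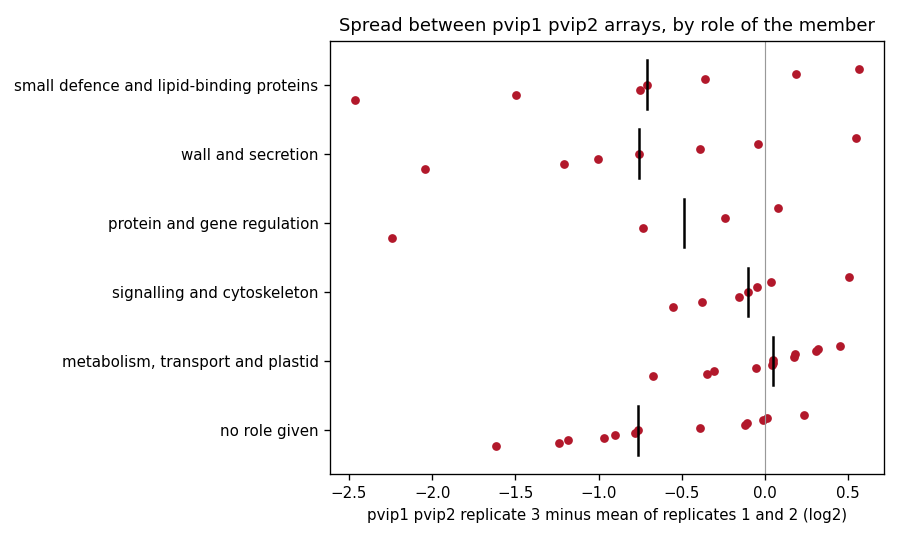
Log2 signal of pvip1 pvip2 replicate 3 minus the mean of pvip1 pvip2 replicates 1 and 2 (horizontal axis) for each of the 50 members (red points, spread vertically for legibility), grouped by role, with the group median as a black bar. The median is 0.05 for metabolic, transport and plastid genes and lies at -0.71 and -0.76 in the defence and wall groups, where the tail reaches -2.46 and -2.04.

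Relatives of AT4G00780, AT1G23130, AT1G66100, AT4G22490 and XTH16, in lists of their families, numbered 26 tested genes. The members themselves were left out, so the rule removed falls from these counts and no rises. With limma at a Benjamini-Hochberg adjusted p under 0.05, 3 of the 26 fell and 11 rose in the mutant. A fit blocked on replicate number called 6 lower and 15 higher, against 2156 lower and 1973 higher of all 13648 probe sets tested. The other 36 tested list genes belong to pathways with no gene among the 50, and 2 of them fell and 3 rose. Of all 62 tested list genes outside the 50, 5 (8.06%) fell and 14 (22.6%) rose in the mutant. Over all 13648 probe sets tested, 10.2% were lower and 10.4% higher (20.5% in all). The shares over all probe sets include the 50 lowered genes and the list counts do not, so the shares of falls cannot be compared directly. The lists were chosen with earlier results of these data known, so the shares of rises are a description too. The median change of the 62 was -0.13, against -0.05 over all tested. With the replicate number as a block 16 of the 62 were lower and 19 higher. When the array labelled Col-0 replicate 1 was omitted 6 were lower and 12 higher, and when Col-0 replicate 2 was omitted 2 were lower and 10 higher.

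Among the MATH-domain genes, relatives of AT4G00780, 2 of 3 others tested rose. AT5G26280 had 9.06, 9.31 and 9.27 in pvip1 pvip2, against 5.37, 5.21 and 5.19 in Col-0, and rose by 3.96 (SE 0.15, limma adjusted p = 3.16e-05). AT3G20370 rose by 2.35 (SE 0.21, limma adjusted p = 0.000378). Both changes are opposite in sign to that of AT4G00780, whose own mutant signal was 5.99% of the Col-0 signal. ZW9 stood at -1.15 (limma adjusted p = 0.0595). Its adjusted p was 0.0046 when limma took the replicate number as a block, and 0.00652 when pvip1 pvip2 replicate 1 was omitted.

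Of the Bet v 1 relatives of AT1G23130, 3 of 4 others tested rose. AT4G23680 had 9.94, 10.25 and 9.19 in pvip1 pvip2, against 7.44, 7.82 and 7.07 in Col-0, and rose by 2.35 (SE 0.30, limma adjusted p = 0.00168). AT1G23120, the gene next to AT1G23130, rose by 1.01 (SE 0.30, limma adjusted p = 0.049), and AT3G26450 by 0.61 (SE 0.17, limma adjusted p = 0.0376). The call of AT1G23120 was lost when any single array other than pvip1 pvip2 replicate 1 was left out (0.0613 to 0.13), and that of AT3G26450 when any single array other than the one labelled Col-0 replicate 1 was left out (0.0719 to 0.112). AT3G26450 was also not called with array medians set equal (0.0584) or after quantile normalization (0.0529), and AT1G23120 not without the level filter (0.0583) or with the station as a block (0.0632). AT4G23670 stood at -0.72 (limma adjusted p = 0.0703).

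Of the lipid transfer relatives of AT4G22490, 3 of 6 others tested rose and none fell. AT3G18280 had 11.50, 12.56 and 11.61 in pvip1 pvip2, against 8.30, 7.81 and 8.23 in Col-0, and rose by 3.78 (SE 0.29, limma adjusted p = 0.000182). AT1G48750 rose by 2.20 (SE 0.27, limma adjusted p = 0.00146). AT5G01870 rose by 1.25 (SE 0.36, limma adjusted p = 0.0427), a call that was lost when any single array other than pvip1 pvip2 replicate 3 was left out (0.061 to 0.113) and after quantile normalization (0.0583). With the replicate block 4 of the 6 were higher.

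Among xyloglucan endotransglucosylase/hydrolase genes, 2 of 5 tested relatives of XTH16 rose. XTH18 had 6.55, 7.84 and 7.61 in pvip1 pvip2, against 4.62, 4.96 and 4.31 in Col-0, and rose by 2.70 (SE 0.35, limma adjusted p = 0.00168). XTH33 rose by 2.29 (SE 0.33, limma adjusted p = 0.00284). XTH19 stood at 1.03 (limma adjusted p = 0.0879, or 0.0145 without Col-0 replicate 2), and XTH32 at -0.73 (limma adjusted p = 0.433). With the block 4 of the 5 were higher and 1, XTH32, was lower (0.0178).

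The list of thionins and plant defensins, small cysteine-rich proteins that act on microbes, was split. Of 8 tested genes other than AT1G66100, 3 fell and 1 rose. The defensin gene LCR69 had 9.05, 9.49 and 8.44 in pvip1 pvip2, against 10.37, 10.79 and 11.10 in Col-0, and fell by 1.76 on the log2 scale (SE 0.29, limma adjusted p = 0.00484). PDF1.2 and PDF1.2b fell by 1.48 and 0.92 (limma adjusted p = 0.0111 and 0.0367), and PDF1.4 rose by 1.46 (limma adjusted p = 0.0148). The call of PDF1.2b was lost without any 1 of the pvip1 pvip2 arrays or Col-0 replicate 2 (0.051 to 0.118), and that of PDF1.4 without Col-0 replicate 2 (0.0578). The thionin gene AT2G15010 stood at 2.86, with 5.76, 3.76 and 7.89 in pvip1 pvip2 against 2.69, 3.09 and 3.05 in Col-0 (limma adjusted p = 0.0527, or 0.0184 with the block and 0.00586 without pvip1 pvip2 replicate 2).

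Further families were drawn up from background knowledge after the 50 genes were known, and their values are given without a test. Many of these relatives lay below the level filter, where a fall has little room to show. Among 6 other formin genes the differences ran from -1.94 to 0.46. The formin gene AT2G43800 was at the low end, with 4.37, 4.24 and 3.50 in pvip1 pvip2 against 6.29, 5.55 and 6.09 in Col-0. Col-0 replicate 2 had kept it below the level of 6. Among 15 other SWEET genes the differences ran from -1.0 to 0.44, and only 5 of the 15 lay above the level filter, between -0.76 and 0.44, beside SWEET11 at -1.59. SWEET12 has no probe set named with it alone and was not analysed here. Among 9 other genes of the tropinone reductase-like cluster the differences ran from -0.57 to 1.91. AT2G29300, which lies between AT2G29290 and AT2G29310, stood at -0.57, and AT2G29340 at 1.91, with 9.33, 9.30 and 9.05 in pvip1 pvip2 against 7.51, 7.55 and 6.88 in Col-0. Of 10 other GSTU genes 3 lay above the filter, with differences from -0.77 to 1.60, and of 6 other SBT genes 1 did, SBT3.5 at 1.63.

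**Figure D4:**
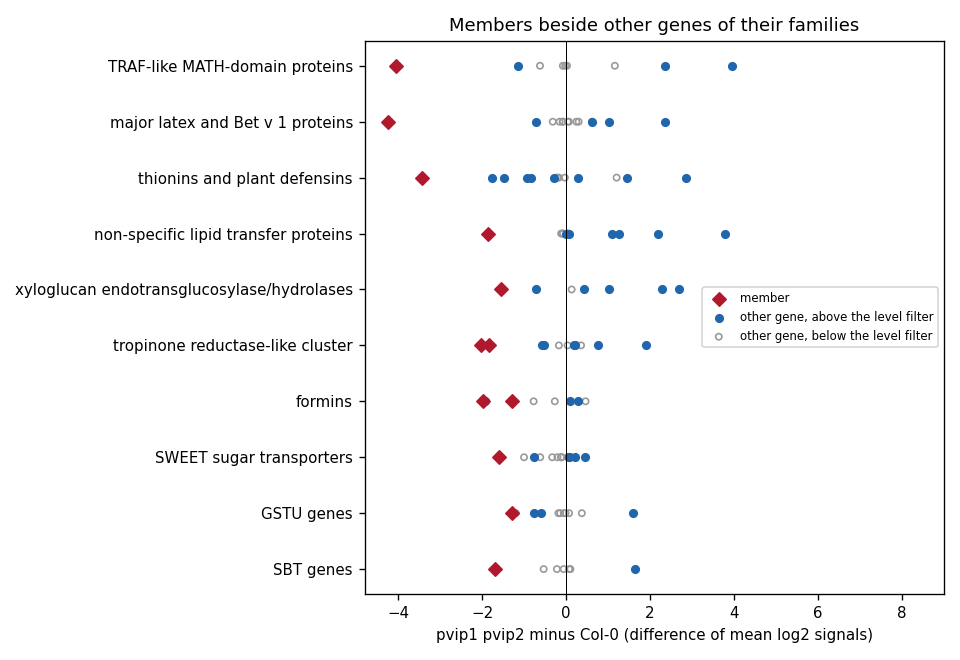
Difference of mean log2 signals, pvip1 pvip2 minus Col-0 (horizontal axis), for members (red diamonds) and for other genes of their families, filled blue where the gene lay above the level filter and open grey where it lay below. In the MATH-domain, Bet v 1, lipid transfer and xyloglucan families genes as high as 3.96, 2.35, 3.78 and 2.70 stand beside members at -4.06, -4.24, -1.87 and -1.55.

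Neighbouring genes were examined in the order of the TAIR10.1 gene table. Of the genes directly next to a member and not themselves members, 29 were tested, and 5 (17.2%) fell while 3 rose, against 10.2% lower and 10.4% higher over all probe sets tested. Their median change was -0.18. AT4G12980, next to STOMAGEN, fell by 2.34 (SE 0.54, limma adjusted p = 0.0195), with 4.80, 3.08 and 3.77 in pvip1 pvip2 against 7.22, 5.44 and 6.03 in Col-0. AT4G29020, next to AT4G29030, fell by 1.36 (SE 0.30, limma adjusted p = 0.0158). AT5G16240, an acyl-carrier-protein desaturase gene next to AT5G16250, fell by 0.94 (SE 0.20, limma adjusted p = 0.0153). AT5G48370, next to the formin gene AT5G48360, and AT5G66550, next to AT5G66560, fell by 0.73 and 0.78 (limma adjusted p = 0.0368 and 0.0268).

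Omitting single arrays changed these falls. Left out singly, pvip1 pvip2 replicate 2 took the number of falls to 0, pvip1 pvip2 replicate 3 or Col-0 replicate 2 to 1 and Col-0 replicate 3 to 3. The number was 5, though not of the same 5 genes, when pvip1 pvip2 replicate 1 or the array labelled Col-0 replicate 1 was omitted. The adjusted p values of lost calls ran from 0.0516 to 0.0633 for AT4G12980, from 0.052 to 0.0571 for AT4G29020 and from 0.0521 to 0.0634 for AT5G16240. For AT5G48370 they ran from 0.0524 to 0.129 and for AT5G66550 from 0.0587 to 0.0972. Omitting the array labelled Col-0 replicate 1 removed the call of AT5G66550, and omitting pvip1 pvip2 replicate 1 that of AT5G48370, which was also not called with the station as a block (0.0531).

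Neighbours that rose lay next to AT1G23130 and AT1G64370. AT1G23140, on the other side of AT1G23130 from AT1G23120, had 5.78, 6.54 and 6.03 in pvip1 pvip2, against 2.86, 3.84 and 3.95 in Col-0, and rose by 2.57 (SE 0.33, limma adjusted p = 0.00169). AT1G64380, an AP2/ERF transcription factor gene next to AT1G64370, rose by 1.38 (SE 0.27, limma adjusted p = 0.0109). AT1G23130 thus lay between 2 genes that were higher in the mutant. Across the chromosomes the 50 genes were spread much like the well-expressed genes, with 11, 6, 12, 8 and 13 on chromosomes 1 to 5, or 22%, 12%, 24%, 16% and 26%, against 25.2%, 15.0%, 21.7%, 14.9% and 23.2%.

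**Figure D5:**
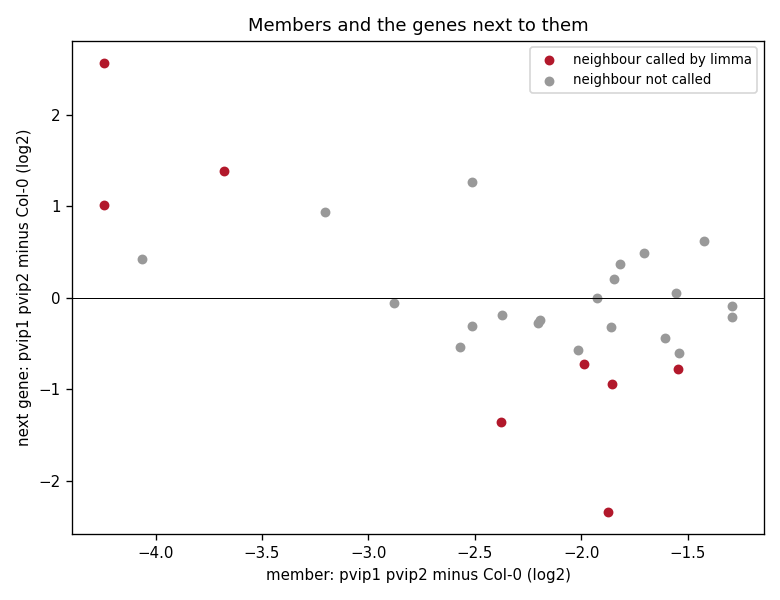
Change of the 29 tested genes that lie next to a member (vertical axis) against the difference of that member (horizontal axis), both as pvip1 pvip2 minus Col-0 on the log2 scale; red points are neighbours called by limma. The 3 neighbours that rose lie at the left, next to AT1G23130 and AT1G64370, and the 5 that fell, between -2.34 and -0.73, lie next to members with differences between -2.38 and -1.55.

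Genes just inside and just outside the limits had similar values. The gaps of AT4G01130, AT3G07540 and AT5G51560 were 1.01, 1.02 and 1.02, and those of PRA1.F1, AT5G48490 and AT4G18970, just outside, were 0.997, 0.997 and 0.99. AT5G48490 shows what a limit on the nearest arrays leaves out: it had 8.71, 7.20 and 6.92 in pvip1 pvip2, against 10.11, 9.71 and 10.00 in Col-0, a difference of -2.33. On the level, AT3G53250, AT5G57760 and AT1G02110 were just inside, with lowest Col-0 values of 6.05, 6.20 and 6.20, and AT2G28410, AT3G17680 and AT1G47670 just outside, with 5.98, 5.95 and 5.94 and differences of -1.63, -1.79 and -1.47.

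Other pathways of the growing shoot were compared through lists with no gene among the 50. Of 9 tested expansins, which loosen cell walls, EXPA16 fell by 1.62 (limma adjusted p = 0.0436) and EXLB1 rose by 0.75 (limma adjusted p = 0.0183). The call of EXPA16 was lost when any single array other than Col-0 replicate 3 was left out (0.0712 to 0.122), and that of EXLB1 without pvip1 pvip2 replicate 2, Col-0 replicate 2 or Col-0 replicate 3 (0.0567 to 0.0772). With the block 4 expansins were lower and 2 higher. None of 5 tested genes of photorespiration and carbonic anhydrase was called, and their median change was -0.66. Without pvip1 pvip2 replicate 1, 3 of the 5 were called lower. With the block 4 of the 5 were lower. The lowest of them was HPR, the hydroxypyruvate reductase of peroxisomes, with 11.58, 10.39 and 10.11 in pvip1 pvip2 against 11.93, 11.70 and 11.50 in Col-0. Of 5 genes of starch and sucrose metabolism APL3, a subunit of the enzyme that makes ADP-glucose, rose by 1.11 (SE 0.22, limma adjusted p = 0.0119), and of 3 genes of sulfate assimilation APS4, an ATP sulfurylase, rose by 1.41 (SE 0.27, limma adjusted p = 0.00958). DPE1, a starch-degrading glucanotransferase, stood at -0.89 and was called lower with the block (0.0122) or when the array labelled Col-0 replicate 1 was omitted (0.0126). Of 2 genes of aliphatic glucosinolate synthesis AT2G31790, a glucosyltransferase, fell by 0.77 (limma adjusted p = 0.0281), a call lost when any single array other than pvip1 pvip2 replicate 1 was left out (0.051 to 0.0871).

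No gene was called by limma among the 4 tested of flavonoid and anthocyanin synthesis, the 3 of leaf shape and polarity, the 2 of the circadian clock, the 2 GASA peptides and the 1 of nitrate uptake and assimilation. Median changes of these lists were -0.03, -0.38, -0.07, -0.40 and -0.37. The GASA peptide gene AT2G14900 stood at -0.45 and was called lower when the array labelled Col-0 replicate 1 was omitted (0.0497). Aquaporins, cuticular wax, jasmonate synthesis and B-box proteins had no gene above the level filter with a probe set named with it alone. Besides AT3G53250, AT2G18010 was the only SAUR gene with such a probe set, and it lay below the filter.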

How the data were processed

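Biotinylated cRNA of 6 samples was hybridised to Affymetrix ATH1 arrays, per the labels' protocols. The authors deposited 1 table of log2 values for 22810 probe sets, 64 of them controls. Probe summary, background correction and normalisation are not given in the sources used here. The submitters' processing notes name GCOS, without a version. That the deposited values are on a log2 scale was inferred from their range, and their scaling was kept. Of 3 reference genes tested, GAPC2 rose in the mutant by 0.565 (limma adjusted p = 0.00799). PEX4 and AT4G34270 stood at -0.21 and 0.25 (limma adjusted p = 0.37 and 0.455). No detection calls were used. Array number limits the precision, and the median limma SE was 0.203.

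Names came from the platform annotation, updated through the TAIR10.1 gene table, which held 13436 of the 13513 single-gene probe sets. Another 503 probe sets have several genes and 8730 are unnamed here. The gene table served for names and gene order only. No sequence was used.

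Tests between genotypes used limma 3.58.1 with R 4.3.3 (eBayes with a trend, two-sided, Benjamini-Hochberg adjustment, threshold 0.05) over the 13648 probe sets with a mean at or above the 40th percentile, 3.81. The procedure was also run on simulated arrays drawn independently of each other, so that run does not cover structure shared between arrays. The p values rest on the spread of samples that the labels call biological replicates. SE values of members come from the SDs of both genotypes (n = 3 each), and those of other genes from limma. Members, lists and roles were chosen with earlier results of these data known. Lists comprised 520 loci, of which 116 have a single-gene probe set, and the others were not analysed here. Named are the largest differences, the highest levels, list genes, genes near the limits, next neighbours and members with a known function.

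The main fit did not pair the samples, and a block on replicate number was the alternative. Deviations from the genotype means of same-numbered arrays correlated at r = 0.592, 0.356 and 0.155 across probe sets. For arrays of unlike numbers r ran from -0.453 to 0.248, the highest for pvip1 pvip2 replicate 2 with Col-0 replicate 3. A pairing beyond replicate 1 is therefore uncertain. Scaling, filter, trend, array weights, block, station and single arrays were varied, and dim probe sets were not otherwise removed.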

Additional observations from a re-analysis of the deposited data

How the results depend on the processing

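The rule fixes the sign of the 50 differences when arrays are left out, 1 station is used or a constant is added, so only their size can vary. Their median was -1.87, and between -2.01 and -1.80 with single arrays left out. With a pseudocount of 64 on the linear signal it was -1.21, and 37 of the 50 stayed at -1 or beyond. The pseudocount shrinks differences of weaker signals by construction. The number of genes that met the rule was 50, and 33 with a level of 7, 198 with a gap of 0.5 and 16 with a gap of 1.5, and it ran from 53 to 97 with single arrays left out, since a rule over fewer arrays is easier to meet. It became 97 without pvip1 pvip2 replicate 1 and 80 when the array labelled Col-0 replicate 1 was omitted. Of the 50 genes, 46 still met the rule with array medians set equal, when 52 did in all, and 47 after quantile normalization, when 51 did. The 2803 calls over all probe sets became 1826 with a filter at the 60th percentile, where 9099 were tested, and ran from 1654 to 2741 with single arrays left out; with the replicate block they were 4129. Called list genes outside the 50 numbered 19, 35 with the replicate block and 30 with array weights, and ran from 12 to 21 with single arrays left out. Called neighbours numbered 8, 11 with the block, 13 with array weights and 2 of 16 with the filter at the 60th percentile, and ran from 3 to 8 with single arrays left out; these alternatives were chosen after seeing the data. No call named in the report was lost with the block. The causes of these shifts beyond those named were not tested.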
